A study of Mus musculus with 6 samples.

Results

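The genes described here make and burn lipid. They are 51 mouse genes of sterol synthesis, fatty acid synthesis, fatty acid oxidation and the PPAR programme, taken by symbol from a list drawn up with earlier results of these data known. A gene counted as measured when at least 1 probe set (a group of probes read as 1 value) carried its symbol alone, and its brightest probe set by mean stood for it. By that rule 49 of the 51 were measured, among 19938 genes in all. Acsl3 was left out because its probe set also names Utp14b, and Ucp2 had no probe set carrying its name alone.

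The RNA came from keratinocytes at the migrating tip of mouse skin wounds, collected 3 days after wounding by laser capture, with E-cadherin staining as the guide. Diabetic mice had been fed a high fat high fructose diet for 16 weeks from 8 weeks of age, and normal mice a control diet over the same time. Each group has 3 arrays, which the labels call biological replicates without stating that each came from its own mouse, so a p-value here reflects only how far these samples scatter. Cells of several sections were pooled into 1 sample, the tissue was fixed, and the sources used here name neither strain nor sex. The comparison asks which transcripts differ in re-epithelializing keratinocytes when the animal is diabetic.

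Cells make cholesterol from acetyl-CoA through mevalonate, squalene and lanosterol, under transcription factors of the SREBP family that are released from the endoplasmic reticulum when sterols run low. Fatty acids are built from the same precursor, elongated and desaturated, and in epidermis they supply the lipids of the permeability barrier. Fatty acid oxidation runs the other way in mitochondria, and the nuclear receptors of the PPAR family, paired with RXR, switch on many of its enzymes when fatty acids bind them.

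SREBP proteins bind the sterol regulatory element in promoters, and 2 stretches that hold its letters are shown to make the element visible. RefSeq promoter windows (GRCm38.p6, 250 bases before to 50 after the gene start) were matched for 40 of the 51 genes. The letters TCACNCCAC were searched on both strands. They occurred in 3 of the 40, namely Hmgcs1, Ehhadh and the unmeasured Ucp2, and in 1.44% of all 27025 genes with a window. Among the sterol synthesis genes 1 of 12 held a match. The Hmgcs1 stretch lies at chr13:119690174-119690262 on the plus strand and that of Ehhadh, an enzyme of peroxisomal fatty acid oxidation, at chr16:21787957-21788045 on the minus strand. Capitals mark the match, which in Ehhadh is on the opposite strand of the gene and so reads as the reverse complement.
Hmgcs1: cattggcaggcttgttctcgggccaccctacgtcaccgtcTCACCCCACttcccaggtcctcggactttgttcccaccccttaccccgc
Ehhadh: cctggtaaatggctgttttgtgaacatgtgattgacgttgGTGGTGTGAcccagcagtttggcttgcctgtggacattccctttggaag
The site of PPAR with RXR, searched as AGGTCA repeated in the same orientation after a spacer of 1 base, was found in 0 of the 40 windows and in 0.0481% of all genes. A match is a string of letters in this window and no measurement of binding.

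All signals are log2 probe set values, and all differences are diabetic minus normal on that scale, followed by limma's moderated standard error (SE). As a background limit, the 95th percentile of 1194 chemosensory receptor genes was taken on each array, and it lay between 1.98 and 2.12. A gene at or under it has only a bound on its level. Of the lipid genes, 5 exceeded the limit on all 6 arrays (10.2%, against 17.4% of all genes). Another 24 exceeded it on none (49%, against 51.5% of all genes) and 20 on some. The limit was lowest on diabetic replicates 1 and 2, and the share of all genes above it was 29.4% to 36.6% on diabetic and 27.4% to 28.7% on normal arrays. Of 14 keratinocyte markers, Sfn and Itgb4 were above it on every array. Above it on none were 6 (42.9%, against 51.5% of all genes), among them the E-cadherin gene Cdh1. Of the 14, 7 were higher and 7 lower in diabetic samples. Cdh1 and Perp were lower without overlap between the groups (14.3%, against 5.66% of all genes in that direction). Trp63 was lower at an unadjusted p under 0.05 (limma), or 7.14% against 2.92% of all genes. The summed log2 signal of the 14 was 27.6 to 28.7 in diabetic and 28.3 to 30.9 in normal samples.

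No lipid gene differed between diabetic and normal keratinocytes past the adjusted threshold. With limma and Benjamini-Hochberg adjustment over all genes, 0 of the 49 had an adjusted p under 0.05 (0% of all genes), and the smallest value was 0.839. Unadjusted, 1 of 49 was under 0.05 (2.04%), where 5.56% of all genes were. The member was Ppargc1a, lower in diabetic samples, and an ordinary linear model without variance moderation gave 0. Values of the groups were fully apart for 3 of 49 genes (6.12%, against 10.7% of all genes). Srebf2 and Angptl4 were the 2 higher in diabetic samples, where 5.02% of all genes stood apart in that direction, and Ppargc1a was the 1 lower, against 5.66%. In such captured samples, fewer cells of a type and less RNA per cell cannot be told apart.

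Differences in signal were small. Across the 49 genes the differences ran from -0.32 to 0.36, with 27 higher, 22 lower and a median of 0.02, and over all genes the median was less than 0.01 in size. The difference's 95% confidence interval stayed inside a 2-fold change, up or down, for all 49 and inside 1.5-fold for 44 (89.8%, against 90.9% of all genes). Where a gene sits at background, its interval speaks of array signal and sets no bound on RNA.

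**Figure D1:**
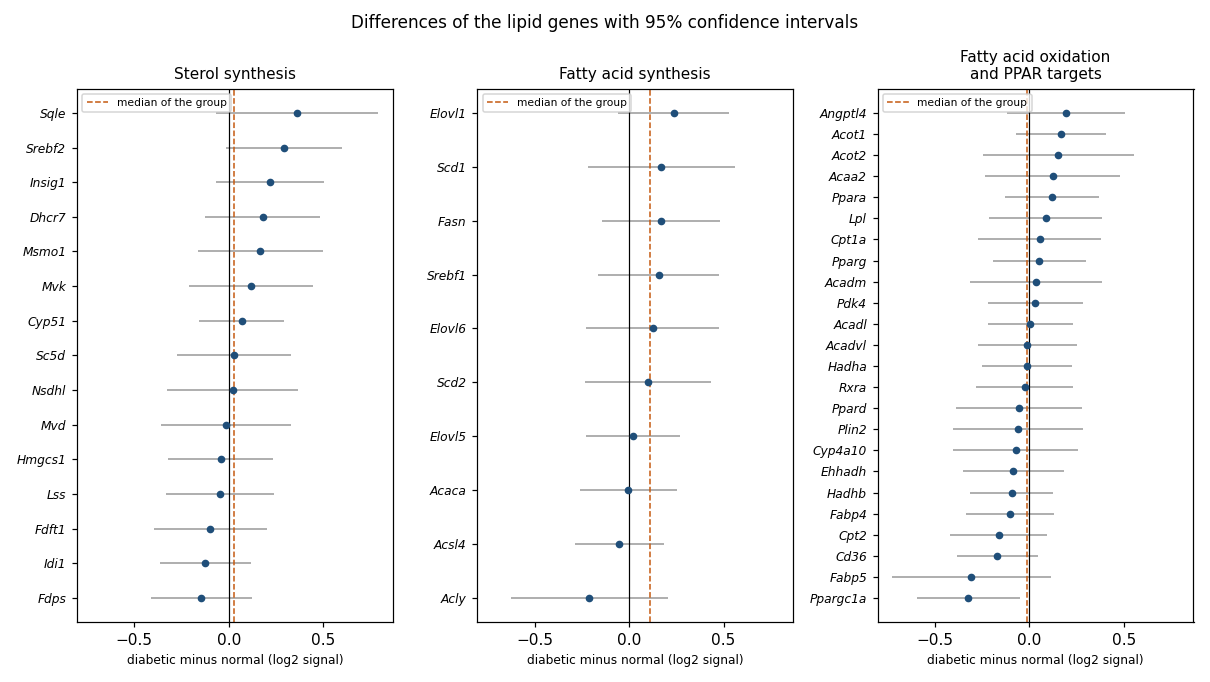
Each point is 1 gene's difference, diabetic minus normal in log2 signal, on the horizontal axis, with its 95% confidence interval, and the dashed line is the median of the panel's genes. The medians are 0.03 for sterol synthesis, 0.11 for fatty acid synthesis and -0.01 for fatty acid oxidation with PPAR targets, and 48 of the 49 intervals cross 0, the exception being Ppargc1a.

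Sterol synthesis genes were split between the directions. All 15 were measured, 9 higher and 6 lower in diabetic samples, with a median difference of 0.03 and 0 at an unadjusted p under 0.05 (limma). Only Srebf2 cleared the background limit on all 6, and 7 of the 15 cleared it on none (46.7%, against 51.5% of all genes).

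Srebf2 encodes the SREBP factor that chiefly drives cholesterol genes. Its signal was 2.73, 2.88 and 2.75 in diabetic samples and 2.38, 2.72 and 2.39 in normal samples. The groups did not overlap, but normal replicate 2 came very close to the lowest diabetic array. The difference was 0.29 (SE 0.14, limma adjusted p 0.893). With 1 array left out it ran from 0.23 without normal replicate 1 to 0.40 without normal replicate 2. Insig1, which retains the SREBP complex in the endoplasmic reticulum and is itself a sterol-responsive gene, was at 2.13, 1.95 and 1.78 in diabetic samples and 1.63, 1.67 and 1.91 in normal samples. These overlapped, and the difference was 0.22 (SE 0.13), or 0.13 without diabetic replicate 1. Insig1 exceeded the limit on diabetic replicate 1 alone.

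The enzymes that follow showed no common direction. Hmgcs1, which makes the substrate of the mevalonate-forming step and holds the element printed above, was at 1.70, 1.48 and 1.68 in diabetic samples and 1.49, 1.89 and 1.61 in normal samples. It was under the limit on every array and differed by -0.04 (SE 0.13). In the mevalonate arm, the kinase gene Mvk differed by 0.12, the decarboxylase gene Mvd by -0.02, the isomerase gene Idi1 by -0.12 and the prenyl synthase gene Fdps by -0.14. Fdft1, the squalene synthase gene, differed by -0.10 on its brighter probe set and by 0.14 on the other, so its sign depends on the probe set.

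Squalene epoxidase, encoded by Sqle, catalyses the first oxygen-requiring step of the sterol branch and had the largest difference of the 49 genes. Its signal was 2.00, 2.71 and 2.10 in diabetic samples and 1.63, 2.23 and 1.85 in normal samples. The highest array was diabetic replicate 2 and the groups overlapped, since normal replicate 2 lay above 2 diabetic arrays. The difference was 0.36 (SE 0.20, limma adjusted p 0.893). It was 0.14 without diabetic replicate 2, 0.23 without normal replicate 1 and 0.53 without normal replicate 2.

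Downstream of squalene, the cyclase gene Lss differed by -0.05, the demethylase genes Cyp51, Msmo1 and Nsdhl by 0.07, 0.17 and 0.02, the desaturase gene Sc5d by 0.03 and the final reductase gene Dhcr7 by 0.18. The arrays of the groups overlapped for each of these 6. In a second list, of other sterol synthesis and uptake genes, 12 of 18 were measured, with 5 higher, 7 lower and 0 at an unadjusted p under 0.05 (limma).

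Fatty acid synthesis genes had the highest median of the 3 groups, at 0.11, without a call. Of 10 measured, 7 were higher and 3 lower in diabetic samples, with 0 at an unadjusted p under 0.05 (limma) and 0 without overlap. No member cleared the background limit on every array, and 5 cleared it on none (50%, against 51.5% of all genes).

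Srebf1, whose product chiefly drives fatty acid genes, was at 2.27, 2.24 and 2.40 in diabetic samples and 2.01, 2.45 and 1.98 in normal samples. The diabetic arrays were all above the limit and lay close together, while normal replicate 2 was the highest of the 6. The difference was 0.16 (SE 0.15), and it was 0.31 without normal replicate 2, 0.09 without normal replicate 1 and 0.07 without normal replicate 3. Acly, which supplies cytosolic acetyl-CoA, was at 1.90, 2.00 and 1.95 in diabetic samples and 2.21, 2.60 and 1.67 in normal samples. Its normal arrays were the most spread of any of the 49 genes, at an SD of 0.47. The difference was -0.21 (SE 0.19), 0.01 without normal replicate 2 and -0.45 without normal replicate 3.

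Acaca, which encodes acetyl-CoA carboxylase, the committed enzyme of the pathway, was at 1.66, 1.75 and 1.87 in diabetic samples and 1.73, 1.92 and 1.65 in normal samples. It was under the limit throughout and differed by -0.004 on this brighter probe set. The other probe set differed by 0.04, so the sign depends on the probe set. Fasn, the fatty acid synthase gene, was at 2.09, 2.16 and 1.99 in diabetic samples and 2.12, 1.99 and 1.61 in normal samples, differing by 0.17 (SE 0.14). Normal replicate 3 was the low array there, the other 5 lay close together around the limit, and without it the difference was 0.02.

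Among the elongases, Elovl1, which extends very long chains, was at 2.20, 1.91 and 2.02 in diabetic samples and 1.61, 2.01 and 1.79 in normal samples. The groups overlapped at a difference of 0.24 (SE 0.13, limma adjusted p 0.893), which was 0.14 without normal replicate 1. Elovl5 differed by 0.02 and Elovl6 by 0.13. The desaturase gene Scd1 was at 1.95, 1.35 and 1.70 in diabetic samples and 1.15, 1.54 and 1.81 in normal samples, and its relative Scd2 at 1.62, 1.35 and 2.03 against 1.63, 1.52 and 1.56. They differed by 0.17 (SE 0.18) and 0.10 (SE 0.15), under the limit on every array. The Scd1 difference was 0.03 without diabetic replicate 1 and less than 0.01 in size without normal replicate 1, and that of Scd2 was -0.08 without diabetic replicate 3. Acsl4, which activates long polyunsaturated acids, differed by -0.05. How far near-identical Scd copies share probes was not tested.

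Of 23 other fatty acid and triglyceride synthesis genes, 22 were measured, 11 higher and 11 lower. Of these, 2 had an unadjusted p under 0.05, both higher in diabetic samples (9.09%, against 2.64% of all genes in that direction). Dgat2, which completes triglycerides, was at 2.02, 2.13 and 2.28 in diabetic samples and 1.85, 1.80 and 1.80 in normal samples, and cleared the limit on all 3 diabetic and 0 normal arrays. The difference was 0.33 (SE 0.12, limma adjusted p 0.819). Scd3, a desaturase gene of sebaceous gland, was at 1.59, 1.87 and 1.78 in diabetic samples and 1.39, 1.55 and 1.53 in normal samples, and none of the 6 cleared the limit. The groups did not overlap, and the difference was 0.26 (SE 0.11, limma adjusted p 0.887). Over the whole list the groups stood apart for 2 higher and 3 lower genes (22.7%, against 10.7% of all genes). The 3 lower were Elovl2, Fads1 and Scd4, the last differing by -0.21 (SE 0.12). The 9 sebaceous gland markers measured include Dgat2, Scd3 and Elovl3 of that list. In diabetic samples 8 of the 9 were higher (88.9%, against 48.7% of all genes). Above the limit on no array were 7 (77.8%, against 51.5% of all genes). The summed log2 signal of the 9 was 15.1, 15.6 and 15.2 in diabetic samples against 15.0, 13.9 and 14.0 in normal samples. The part of sebaceous gland RNA in these values was not tested.

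**Figure D2:**
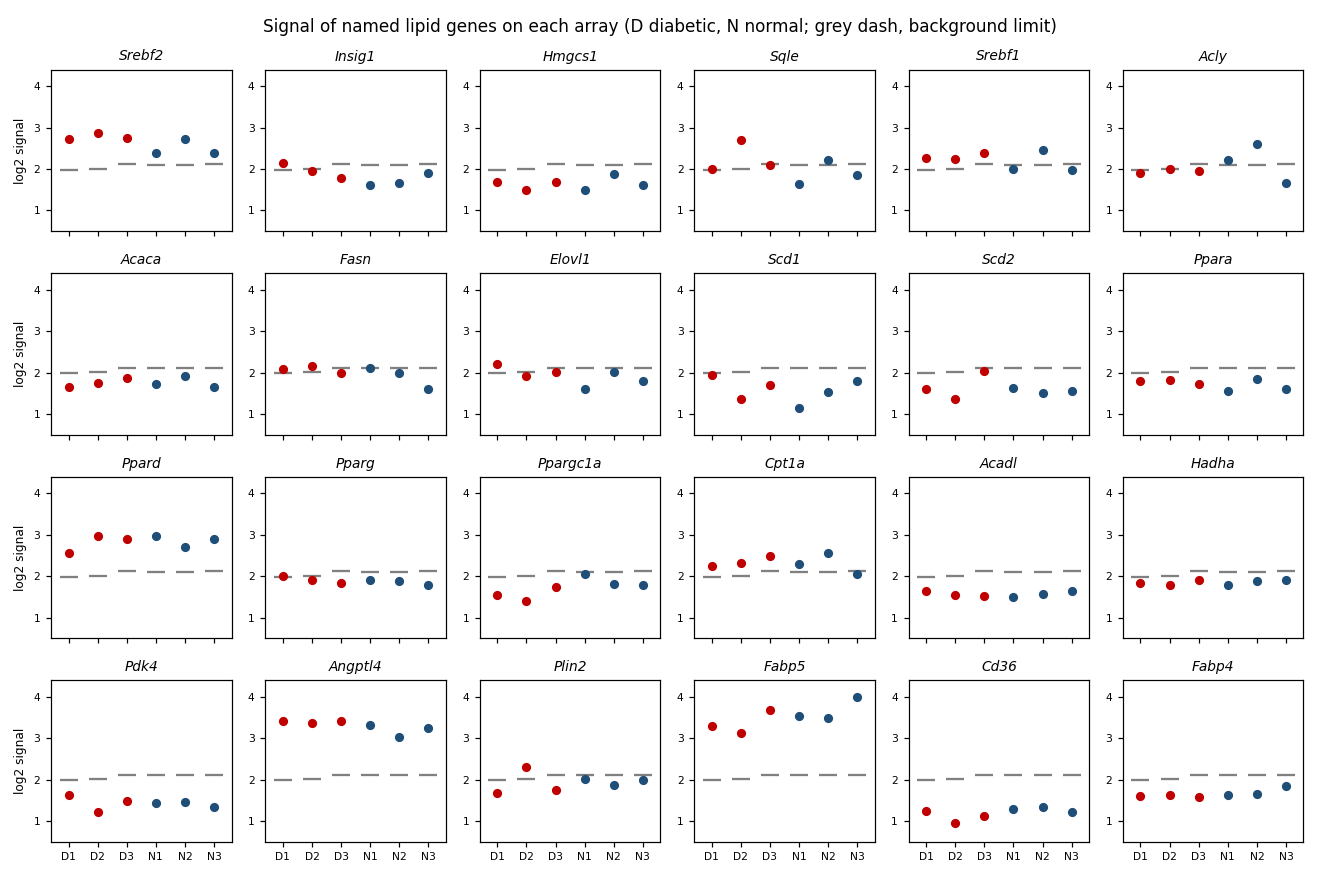
Each panel gives 1 gene's log2 signal on the 6 arrays, diabetic (D, red) and normal (N, blue) with their replicate numbers, and the grey dash is each array's background limit. Only Srebf2, Ppard, Angptl4 and Fabp5 lie above the dashes on every array among these 24 genes, and the red and blue points overlap in all panels but Srebf2, Ppargc1a and Angptl4.

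Fatty acid oxidation and PPAR genes were centred on no difference. Of 24 measured, 11 were higher and 13 lower in diabetic samples, with a median difference of -0.01. An unadjusted p under 0.05 was reached by 0 higher and 1 lower (limma), against 2.92% of all genes for the lower direction. Ppard, Angptl4, Fabp5 and Acot2 cleared the limit on every array (16.7%, against 17.4% of all genes). A further 12 of the 24 cleared it on none (50%, against 51.5% of all genes).

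Among the regulators, Ppargc1a, whose product is a coactivator of PPARs and of mitochondrial biogenesis, stood lowest. Its signal was 1.53, 1.41 and 1.73 in diabetic samples and 2.05, 1.81 and 1.78 in normal samples. Every diabetic array was under every normal array, with diabetic replicate 3 close to normal replicate 3, and all 6 were under the background limit. The difference was -0.32 (SE 0.12, limma adjusted p 0.839). The other, dimmer probe set of the gene differed by -0.11, with overlapping groups. Ppargc1a no longer had an unadjusted p under 0.05 without diabetic replicate 1, diabetic replicate 2 or normal replicate 1, or with the mean of both probe sets.

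The receptors themselves showed small differences. Ppard, the PPAR most widely expressed in epidermis, was at 2.56, 2.96 and 2.89 in diabetic samples and 2.97, 2.71 and 2.89 in normal samples, differing by -0.06 (SE 0.15). Ppara, the receptor that governs oxidation in liver, was at 1.80, 1.83 and 1.73 in diabetic samples and 1.57, 1.84 and 1.60 in normal samples, differing by 0.12 (SE 0.11). Pparg, the adipocyte regulator, was at 2.01, 1.91 and 1.82 in diabetic samples and 1.92, 1.89 and 1.78 in normal samples, differing by 0.05 (SE 0.11). Ppard alone of these was above the limit on all arrays, and the groups overlapped for each. Rxra, the common partner, differed by -0.03.

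Enzymes of mitochondrial and peroxisomal oxidation had differences between -0.16 and 0.12, 4 higher and 5 lower, and the groups overlapped for all 9. Cpt1a, which admits long-chain fatty acids into mitochondria, was at 2.25, 2.32 and 2.49 in diabetic samples and 2.30, 2.55 and 2.05 in normal samples, differing by 0.05 (SE 0.15). It exceeded the limit on 5 of 6 arrays. Acadl, the long-chain dehydrogenase gene, was at 1.65, 1.54 and 1.52 in diabetic samples and 1.49, 1.56 and 1.64 in normal samples. Hadha, a subunit of the trifunctional protein, was at 1.82, 1.79 and 1.90 against 1.77, 1.88 and 1.90. These lay under the limit throughout and differed by 0.01 (SE 0.10) and -0.01 (SE 0.11). Cpt2, which restores acyl-CoA inside mitochondria, differed by -0.16, the thiolase gene Acaa2 by 0.12, Acadm by 0.03, Acadvl by -0.01, Hadhb by -0.09 and Ehhadh by -0.08.

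PPAR targets and lipid handling genes were evenly split, 5 higher and 5 lower of 10 measured. Angptl4, a secreted inhibitor of lipoprotein lipase and a PPAR target in epidermis, was at 3.41, 3.36 and 3.41 in diabetic samples and 3.32, 3.04 and 3.25 in normal samples. The diabetic arrays lay close together and just above the normal ones. The difference was 0.19 (SE 0.14, limma adjusted p 0.911), and 0.11 without normal replicate 2.

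Fabp5, the epidermal fatty acid binding protein gene, was at 3.30, 3.14 and 3.69 in diabetic samples and 3.54, 3.50 and 4.01 in normal samples. The groups overlapped through diabetic replicate 3, and replicate 3 was the highest array in each group. The difference was -0.31 (SE 0.19, limma adjusted p 0.894). A second, dimmer probe set differed by -0.17, in the same direction, but how far the 2 share probes was not tested. Without diabetic replicate 2 the difference was -0.19 and without normal replicate 3 it was -0.14.

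Genes of fatty acid uptake, storage and fuel choice were near or under background. Pdk4, which holds back glucose oxidation, was at 1.62, 1.23 and 1.48 in diabetic samples and 1.43, 1.46 and 1.34 in normal samples, differing by 0.03. The lipid droplet coat gene Plin2 was at 1.67, 2.29 and 1.75 in diabetic samples and 2.01, 1.88 and 2.00 in normal samples, differing by -0.06. Plin2 exceeded the limit on diabetic replicate 2 alone, and its difference became 0.06 when diabetic replicate 1 was left out and -0.26 when diabetic replicate 2 was. The fatty acid transporter gene Cd36 was at 1.24, 0.95 and 1.13 in diabetic samples and 1.29, 1.33 and 1.21 in normal samples, differing by -0.17 (SE 0.10), or by -0.09 without diabetic replicate 2. Fabp4, the binding protein of adipocytes, was at 1.62, 1.64 and 1.58 in diabetic samples and 1.63, 1.66 and 1.84 in normal samples, differing by -0.10 (SE 0.11). Cd36 and Fabp4 were under the limit on every array, and neither group stood clear of the other.

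Lpl, the lipoprotein lipase gene, differed by 0.09, the acyl-CoA thioesterase genes Acot1 and Acot2 by 0.17 and 0.15, and the fatty acid hydroxylase gene Cyp4a10 by -0.07. Acot1 and Acot2, and the Cyp4a genes, are near-identical copies whose probes may share RNA, so these values are uncertain as to the gene. Of 8 adipocyte markers measured, 5 were higher in diabetic samples (62.5%, against 48.7% of all genes). Their summed log2 signal was 15.3 to 16.1 on the diabetic and 14.8 to 16.0 on the normal arrays. The defining marker Adipoq was under the limit on all 6 arrays and Plin1 above it on all 6. Macrophages also express Cd36 and Lpl. Of 10 macrophage markers, 4 were higher and 6 lower, and 8 were above the limit on no array (80%, against 51.5% of all genes). The summed log2 signal of the 10 was 16.5 to 16.9 in diabetic and 17.2 to 17.4 in normal samples. The part of either cell type in the values of Cd36, Lpl, Pparg and Fabp4 was not tested.

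Of 30 other fatty acid oxidation and PPAR target genes, 27 were measured, 13 higher and 14 lower, with 1 in each direction at an unadjusted p under 0.05 (limma). That is 3.7% each way, against 2.64% higher and 2.92% lower over all genes. The enoyl-CoA isomerase gene Eci1 was at 1.76, 1.75 and 1.47 in diabetic samples and 1.35, 1.31 and 1.25 in normal samples, never over the limit. The difference was 0.36 (SE 0.11, limma adjusted p 0.780). Ucp3, a mitochondrial carrier gene of skeletal muscle, was at 2.04, 1.93 and 1.88 in diabetic samples and 2.27, 2.12 and 2.33 in normal samples, differing by -0.29 (SE 0.12, limma adjusted p 0.863). The groups did not overlap for either gene, as for 5.02% of all genes in the direction of Eci1 and 5.66% in that of Ucp3. Of 10 skeletal muscle markers, 8 were higher in diabetic samples (80%, against 48.7% of all genes). Among them, 4 had no overlap between the groups (40% of the 10, against 5.02% of all genes in that direction). Myh2 and Myot, both higher, had an unadjusted p under 0.05 (limma), or 20% against 2.64% of all genes in that direction. The summed log2 signal of the 10 markers was 22.6 to 24.2 on the diabetic and 21.9 to 22.3 on the normal arrays. The part of muscle RNA in the Ucp3 values was not tested.

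The highest signal fell on normal replicate 2 and on diabetic replicate 1 more often for these genes than for all genes. Normal replicate 2 was the highest of the 6 arrays for 14 of the 49 (28.6%), where 16.8% of all genes were highest on it. Diabetic replicate 1 was highest for 11 (22.4%, against 13.2%) and normal replicate 1 for 3 (6.12%, against 16.7%). The 14 included Hmgcs1, Mvd, Fdps, Fdft1 and Lss of sterol synthesis and Srebf1, Acly and Acaca of fatty acid synthesis.

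Without normal replicate 2, 35 of the 49 genes were higher in diabetic samples (71.4%, against 49.3% of all genes), compared with 27 over all arrays. By group these were 12 of 15 sterol synthesis, 9 of 10 fatty acid synthesis and 14 of 24 oxidation and PPAR genes. Unadjusted p-values under 0.05 were then found for 5 genes, Srebf2, Sqle, Srebf1 and Elovl1 higher and Ppargc1a lower, where 6.98% of all genes had one. None passed adjustment, with a smallest limma adjusted p of 0.659. Leaving out any of the other 5 arrays gave 24 to 30 higher. Since many of these genes were highest on normal replicate 2, leaving it out raises their differences by construction. The shift is therefore no separate sign of higher lipid genes.

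**Figure D3:**
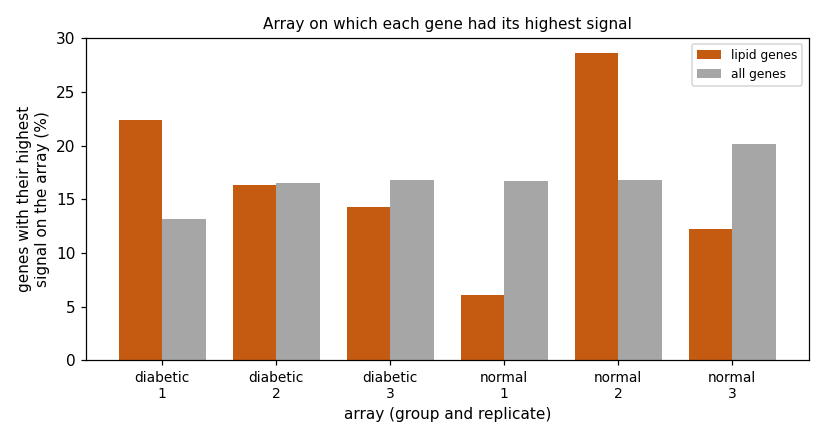
Bars give the percentage of genes whose highest signal fell on each array, for the 49 lipid genes (orange) and all 19938 genes (grey). Normal replicate 2 holds 28.6% of the lipid genes and 16.8% of all genes, and normal replicate 1 holds 6.12% and 16.7%.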

How the data were processed

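The authors deposited 6 columns of log2 signals, 1 per array, with 35556 probe sets each. Base 2 was inferred from the range of the values, and Partek is named, without a version, per the submitters' processing notes. How background was corrected and arrays were normalized is not stated in the sources used here. Array medians lay between 1.75 and 1.80 and no scaling was added. Array annotation gave 1 symbol for 21789 probe sets. Of these, 21698 were matched by gene ID to RefSeq's table of GRCm38.p6 and took the symbol given there. The number of arrays limits the precision.

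All 19938 genes were fitted without a filter by lmFit and eBayes of limma 3.58.1 (R 4.3.3), allowing the variance a trend with intensity, with Benjamini-Hochberg adjustment. The fit was tested on simulated data. Gene lists were described by counts and medians, with no test of a list. The 51 genes, the other lists and the rules were chosen with earlier results of these data known. Signals on every array are given for 22 genes chosen for their role. They are also given for the 3 largest differences in each group, any of the 51 genes with an unadjusted p under 0.05, and such genes of the further pathway lists, up to 3 a list. Marker lists of cell types are described by counts and summed signals. Endothelial markers were also measured, 3 of 8 higher in diabetic samples. The summed log2 signal of these 8 was 15.3 to 15.7 on the diabetic and 15.5 to 15.8 on the normal arrays. Alternatives covered scaling, variance model, array weights, a filter on dim genes, several probe sets, a replicate block, thresholds and each array left out.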

Additional observations from a re-analysis of the deposited data

How the results depend on the processing

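The count of genes past an adjusted p of 0.05 was 0 under every alternative that kept all 6 arrays, 0.10 as the threshold included, and 0 to 2 with 1 array left out; none of these was a lipid gene. Lipid genes with an unadjusted p under 0.05 numbered 1, and 2 without an intensity trend (Srebf2 and Ppargc1a). They numbered 0 in the ordinary linear model, 0 with the mean of a gene's probe sets, 0 when a fold of at least 1.5 was also asked, and 0 without the dimmer 50% of genes, which leaves 27 lipid genes and drops Ppargc1a. With 1 array left out the count was 0 to 5. The share of all genes at an unadjusted p under 0.05 alone was 5.2% to 5.75% with all 6 arrays and 4.57% to 6.98% with 1 left out. The titles give both groups replicate numbers 1 to 3, but same-numbered samples did not deviate together (correlations over genes of -0.02, 0.01 and 0.01), so the numbers were not taken as pairs; with the replicate block the count was 2 (Sqle and Ppargc1a). The median difference was 0.03 for sterol synthesis, 0.14 without the dimmer genes and 0.03 to 0.05 with 1 array left out. For fatty acid synthesis it was 0.11, and 0.04 to 0.10 with 1 array left out. For oxidation and PPAR genes it was -0.011, 0.012 without the dimmer genes and -0.0375 to 0.0173 with 1 array left out, so its sign is not settled. Where these values moved, the cause was not tested. Quantile normalization changed the sign of 1 of 49 lipid differences, the mean of probe sets that of 2, and leaving out 1 array that of 5 to 10 (10 without diabetic replicate 1 or normal replicate 2). Most lipid genes, like most of all genes on these arrays, lay near background, which limits how far a difference in RNA can show.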
